A study of Mus musculus with 2 samples.

Results

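The miR-103 and miR-107 genes are 3 microRNA (miRNA) genes, Mir103-1, Mir103-2 and Mir107, each of which lies inside a gene for a pantothenate kinase. They were taken by gene symbol from the GENCODE mouse annotation, and all 3 were found among the 1973 miRNA genes counted. The data came from small RNA sequencing (RNA shorter than 30 bases, per the labels) of the neural tube of newborn mice of strain B6NCrl, at postnatal day 0. The 1 group held 2 libraries, each from a single neural tube, of pup 1 and pup 2 of 1 dam, and no treatment or genotype was compared. The pups were littermates of unrecorded sex, so every SD below is over 2 animals.

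Pantothenate kinases carry out the first, rate-limiting step of coenzyme A synthesis, the cofactor on which fatty acid and energy metabolism depend. The miRNAs made from the introns of their genes are known from work on insulin sensitivity in liver and fat, and from repression of Dicer1, the enzyme that matures miRNAs. A miRNA precursor folds into a hairpin and is cut into a 5p and a 3p arm; the arm that is kept finds its targets mainly through its seed, bases 2 to 8 from the 5′ end. In this family the 3p arm is the known product, and closely related 3p arms come from all 3 genes.

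The mature arms are shown because the values that follow depend on how far they differ. RefSeq (GRCm38.p6, the same assembly as mm10) lists them as follows, 5′ to 3′, with the seed in capitals.
miR-103-3p, from Mir103-1 and Mir103-2: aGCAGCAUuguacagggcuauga
miR-107-3p, from Mir107: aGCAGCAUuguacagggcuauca
miR-103-1-5p: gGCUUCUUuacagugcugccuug
miR-103-2-5p: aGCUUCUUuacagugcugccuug
miR-107-5p: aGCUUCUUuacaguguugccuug
The 3 genes share 1 seed on the 3p arm, GCAGCAU, and 1 on the 5p arm, GCUUCUU. Among the 1738 mature arms of the RefSeq table, each seed was carried by the arms of these 3 genes and no others. With positions counted from 1 at the 5′ end, miR-103-3p and miR-107-3p differ by the single substitution G22C, which lies outside the seed. The 3p arms of Mir103-1 and Mir103-2 are identical in all 23 bases. The 5p arms tell all 3 genes apart: G1A separates Mir103-1 from Mir103-2, and C16U separates Mir103-2 from Mir107.

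The precursors are shown to place the arms, which are in capitals here.
Mir103-1: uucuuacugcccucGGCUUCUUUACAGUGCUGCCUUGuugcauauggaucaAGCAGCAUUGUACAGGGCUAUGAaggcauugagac
Mir103-2: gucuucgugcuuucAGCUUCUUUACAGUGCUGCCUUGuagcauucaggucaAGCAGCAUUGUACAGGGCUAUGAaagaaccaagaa
Mir107: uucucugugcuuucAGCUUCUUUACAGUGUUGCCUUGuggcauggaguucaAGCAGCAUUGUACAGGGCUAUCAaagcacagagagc
In all 3 precursors the 5p arm spans bases 15 to 37 and the 3p arm bases 52 to 74. Around the 3p arm, Mir103-1 and Mir103-2 have 27 consecutive bases in common, starting at base 49. Either of them has 24 consecutive bases in common with Mir107 there. Around the 5p arm, Mir103-2 and Mir107 have 23 consecutive bases in common from base 7, part of them outside the arm. Mir103-1 and Mir103-2 have 23 in common from base 16. Apart from these stretches, the loops and the outer ends differ between the 3 genes.

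The genes lie at matching places in their hosts (mm10, GENCODE M21 annotation). Mir103-1 is on chromosome 11 (35782396 to 35782481, plus strand) in Pank3. Mir103-2 is on chromosome 2 (131288052 to 131288137, plus strand) in Pank2. Mir107 is on chromosome 19 (34820687 to 34820773, minus strand) in Pank1. Each is on the strand of its host, and each is in intron 5 of the host's principal coding transcript, which has 7 exons in all 3 hosts. Exons 2 to 6 of these transcripts have the same lengths in all 3 hosts, 353, 254, 177, 124 and 126 bases. The introns themselves differ in length, with 1740 bases in Pank3, 5801 in Pank2 and 7282 in Pank1. The miRNA gene starts 688, 454 and 326 bases after the preceding exon in that order. No coding transcript of a host has an exon over its miRNA gene. Each member lies alone: the nearest other annotated miRNA gene is 165471 bases from Mir103-1, 247654 from Mir103-2 and 70074 from Mir107. A place inside a protein-coding gene on the same strand is common, being shared by 854 of the 1894 counted miRNA genes that had a symbol. Host mRNA was not measured in these small RNA libraries.

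**Figure D1:**
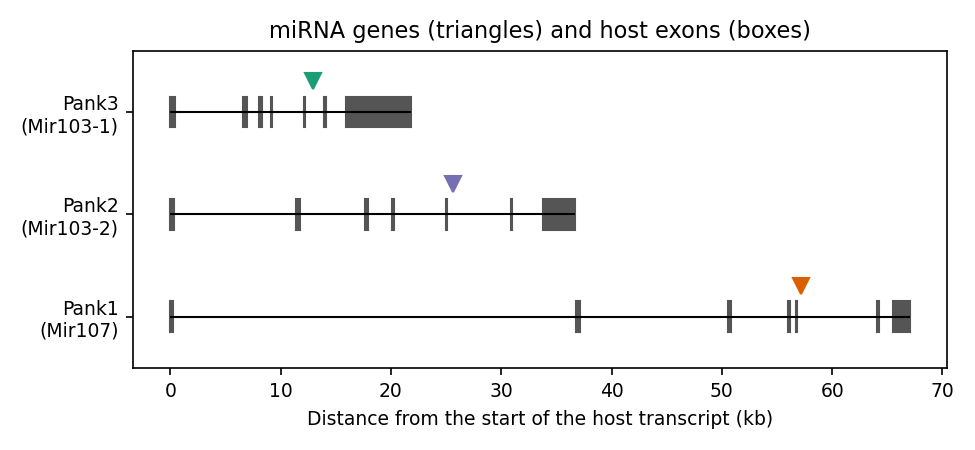
Exons (boxes) of the principal coding transcript of Pank3, Pank2 and Pank1, with the miRNA gene as a triangle, plotted by distance in kb from the start of the transcript. In each host the miRNA gene lies in intron 5, between exon 5 and exon 6 of 7, and close behind exon 5 in Pank2 and Pank1.

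The libraries held 3216453 (pup 1) and 3660693 (pup 2) counts in miRNA genes on their own strand, so 1 count equals 0.311 CPM (counts per 1000000 own-strand counts) in pup 1 and 0.273 CPM in pup 2. Reads that fitted several places, 35.7% and 35.4% of all reads, stand in the tables as a class of their own and belong to no gene. Of the 10 measured miRNA genes fixed as neural markers, 7 had at least 10 counts in both pups, led by Mir137 at 16076 CPM ± 1484 (SD, n = 2). Mir124a-2, Mir124a-3 and Mir9-2 stayed below 10 counts in at least 1 pup. Mir124a and Mir9 each stand in the list as several gene copies, and Mir9-1 was not counted as a gene. Any reads that fitted several copies would be outside these counts, so the levels of mature miR-124 and miR-9 were not measured. Markers of other tissues were present as well, from endothelial Mir126a at 26923 CPM ± 1294 down to hepatocyte Mir122 at 84.2 CPM ± 28.3; what they contribute to the levels of the miR-103 and miR-107 genes was not tested. In a whole tissue, fewer cells of a type and less RNA per cell cannot be told apart.

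How much of each gene a read can identify follows from the sequences. A read that starts at the first base of the 3p arm and is 18 to 21 bases long fits all 3 precursors. At 22 to 24 bases it fits both Mir103 precursors but not Mir107, while a Mir107 read of 22 bases or more fits Mir107 alone. Only at 25 bases, past the end of the annotated arm, does a 3p read tell Mir103-1 from Mir103-2. A read from the first base of a 5p arm fits a single precursor at each length from 18 to 26 bases. A window of 22 bases that starts at base 16 or 17, inside the 5p arm, fits both Mir103 precursors. Counted over all windows of 22 bases, 57 of 65 windows of Mir103-1, 55 of 65 of Mir103-2 and 61 of 66 of Mir107 occur in 1 precursor only. The search covered the 1005 precursors of the RefSeq table with exact matching, not the whole genome. The tables give no read lengths and no number of mismatches allowed in mapping.

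**Figure D2:**
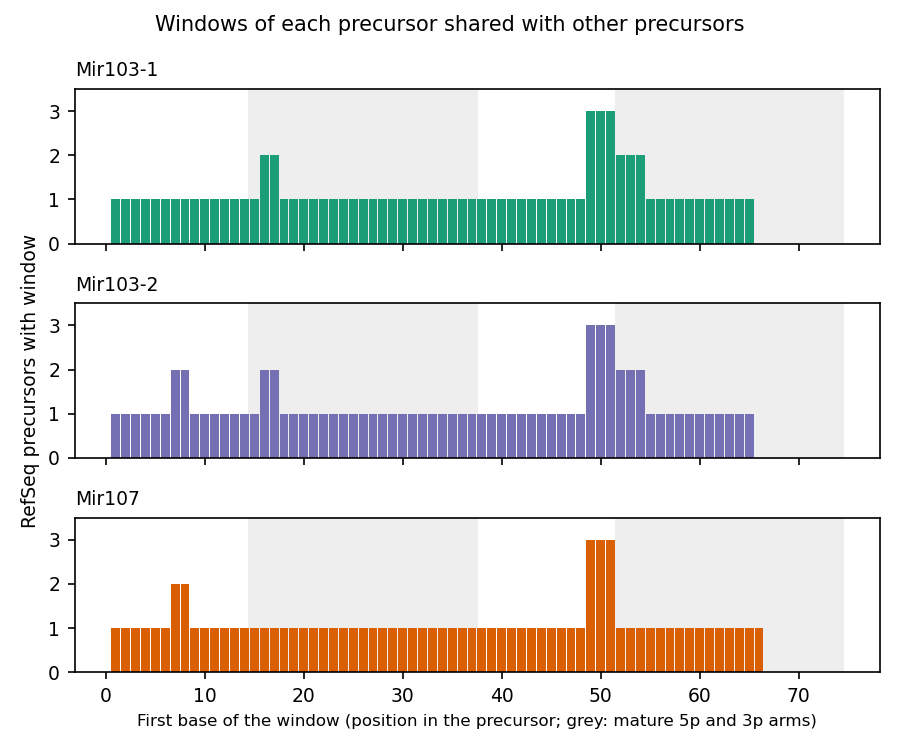
For each window of 22 bases, by the position of its first base in the precursor, the number of RefSeq precursors (of 1005) that hold it; grey marks the mature 5p and 3p arms. Windows that start at the first base of the 3p arm, base 52, are held by 2 precursors for Mir103-1 and Mir103-2 and by 1 for Mir107.

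Mir107 was by far the highest of the 3 genes in both pups. It had 9412 counts in pup 1 and 9767 in pup 2, which is 2926 and 2668 CPM, with a mean of 2797 CPM ± 183 (SD, n = 2). The exact 95% binomial intervals, which leave out all but counting error (no molecular identifiers are stated), were 2867 to 2986 CPM in pup 1 and 2615 to 2721 CPM in pup 2. Mir107 ranked 50 of the 1973 counted miRNA genes by mean CPM, 47 in pup 1 and 54 in pup 2. This put it among the upper 14.2% of the 352 genes with at least 10 counts in both pups.

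Mir103-2 had 162 counts in pup 1 and 202 in pup 2, or 50.4 and 55.2 CPM, with a mean of 52.8 CPM ± 3.40 (SD, n = 2) and rank 244. The pups lay close together, and their exact 95% intervals (42.9 to 58.7 and 47.8 to 63.3 CPM) overlapped. Mir103-1 had 10 counts in pup 1 and 26 in pup 2, or 3.11 and 7.10 CPM, with a mean of 5.11 CPM ± 2.82 and rank 326. It met the detection rule of 10 counts in both pups with no count to spare in pup 1. All 3 genes were therefore detected, against 17.8% of all counted miRNA genes. That share includes 1293 of the 1973 genes that had no own-strand count in either pup. None of the 3 members had a count on the opposite strand in either pup.

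**Figure D3:**
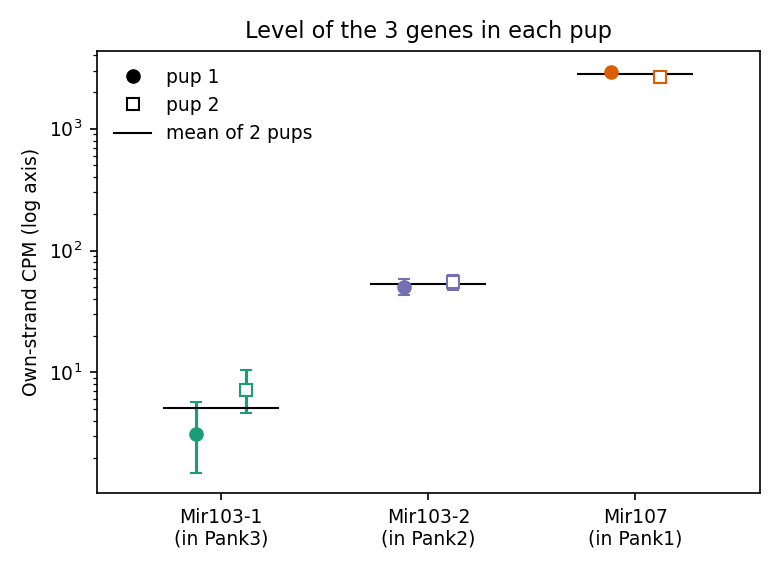
Own-strand CPM (log axis) of Mir103-1, Mir103-2 and Mir107 in pup 1 (filled circles) and pup 2 (open squares), with exact 95% binomial intervals for counting error and the mean of the 2 pups as a line. The 3 genes occupy separate ranges, near 5.11, 52.8 and 2797 CPM.

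The order Mir107, Mir103-2, Mir103-1 was the same in both pups, and the range over the pups of each gene lay apart from that of the next. Mir107 stood 58.1-fold above Mir103-2 in pup 1 and 48.4-fold in pup 2. Mir103-2 stood 16.2-fold above Mir103-1 in pup 1 and 7.77-fold in pup 2, a fold set by the few counts of Mir103-1. These folds compare CPM between genes; since the precursors have 86 or 87 bases, dividing counts by precursor length gave a mean fold of 52.6 in place of 53.2 for Mir107 over Mir103-2. The exact two-sided permutation test of gene pairs ignored that both genes were read in the same pups. With 2 values for each gene, this permutation test cannot give a p below 0.333, and each of the 3 gene pairs gave that p.

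Mir107 held 98.2% of the counts of the 3 genes in pup 1 and 97.7% in pup 2, a mean of 97.96% ± 0.34 (SD, n = 2). Together the 3 genes made up 0.298% and 0.273% of the own-strand counts. Within the pair of Mir103 genes, Mir103-1 held 5.81% (exact 95% interval 2.82 to 10.4%) of 172 counts in pup 1 and 11.4% (7.59 to 16.3%) of 228 counts in pup 2. These intervals overlap, and Mir103-2 held most of the pair's counts in both pups.

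These shares describe reads placed at 1 gene and are not the shares of the mature miRNAs. A read of exactly the annotated miR-103-3p fits both Mir103-1 and Mir103-2, and reads of that kind could be counted only in the class that fits several places. That class held 2268506 reads in pup 1 and 2555735 in pup 2, 237 and 256 times the counts of the 3 genes together. It is not broken down by miRNA or by kind of RNA, so how much of it is miRNA is not known. The level of mature miR-103-3p was therefore not measured, and how much of the gap between Mir107 and the Mir103 genes goes with the shared arm was not tested. Shorter miR-107-3p reads, of 21 bases or fewer, would be missing from Mir107 in the same way.

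Mature arms found in more than 1 precursor also occur in other genes. Of the 916 counted genes with arms in the RefSeq table, 105 have a mature arm that also occurs in another precursor beside an arm that does not, as Mir103-1 and Mir103-2 do. Of these 105, 55 (52.4%) were detected, and the detected genes had a median of 109 CPM. Of the 776 genes with no shared arm, such as Mir107, 257 (33.1%) were detected, with a median of 215 CPM. Of the 35 genes whose every arm is shared, 8 (22.9%) were detected, with a median of 171 CPM. Both Mir103 genes lay below the median of the detected genes of their class. The classes were not matched in any other respect, and what a shared arm does to the count of a gene was not tested. Mir16-1 and Mir16-2, relatives that also make an identical mature arm, stood at 1704 CPM ± 250 and 394 CPM ± 77.7 (SD, n = 2).

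Between the pups, Mir107 differed slightly but beyond counting error. Its share was lower in pup 2 than in pup 1, with a log2 ratio of -0.13 (exact 95% interval -0.17 to -0.09, a fold of 0.912). An exact two-sided binomial test of the counts given the library totals, with Benjamini-Hochberg adjustment over 413 genes with at least 10 counts summed, gave an adjusted p of 8.9e-10. Such calls were common: 40.9% of the tested genes were called in either direction and 15.3% as lower in pup 2. These shares include genes with as few as 10 counts summed, where the test calls only large ratios. Mir107 had 9412 and 9767 counts, and the share called among genes of similar counts was not computed. The difference of Mir107 was also small among genes, since 223 of the 352 detected genes had a log2 ratio at least as far from 0. The test compares 2 libraries with 1 pup on each side, so it holds no estimate of the variation between animals.

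Mir103-2 had a log2 ratio of 0.13 (exact 95% interval -0.17 to 0.44) and an adjusted p of 0.554 in the same exact binomial test, so a difference was not detectable at this depth. Mir103-1 had a log2 ratio of 1.15 (interval 0.09 to 2.41, a fold of 2.28 between 10 and 26 counts). Its unadjusted p was 0.029 and its adjusted p 0.066 in the exact binomial test, which did not pass the threshold of 0.05. The log2 ratios were taken with 0.5 added to each count, but the intervals and the folds were taken without it. Of the 3 genes, 1 was thus called, lower in pup 2, while both Mir103 genes had ratios above 0 that were not called.

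**Figure D4:**
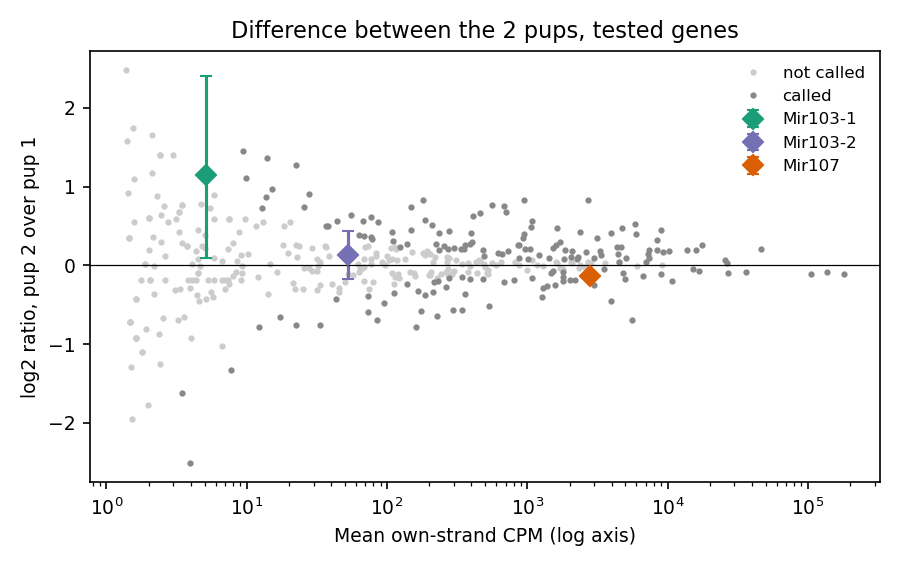
Log2 ratio of pup 2 over pup 1 against mean own-strand CPM (log axis) for the 413 tested miRNA genes, with called genes in dark grey and the 3 members as diamonds with exact 95% intervals. The interval of Mir107 lies below 0, that of Mir103-2 spans 0, and that of Mir103-1 reaches from 0.09 to 2.41.

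The genes most like each member over the 2 pups were those with the smallest summed difference in log2(CPM + 1). For Mir107 these were Mir708 (2800 and 2868 CPM in pups 1 and 2, distance 0.17), Mir151 (2651 and 2737 CPM, 0.18) and Mir106b (3249 and 2727 CPM, 0.18). Mir708 and Mir106b were also the genes directly above Mir107 in rank, while Mir182 (1937 and 3452 CPM) and Mir151 came directly below. The range of Mir107 over the pups overlapped that of each of these 4 genes, so its order among them is not set beyond the spread. For Mir103-2 the most like genes were Mir3072 (55.03 and 51.1 CPM), Mir670 (59.4 and 54.4 CPM) and Mir3074-1 (54.1 and 46.7 CPM). Its neighbours in rank were Mir450b and Mir3072 above and Mir3074-1 and Mir544 below. Mir103-1 was closest to Mir3057 and Mir3058, each with 10 counts in pup 1 and 25 in pup 2, and to Mir302c with 11 and 22 counts. Mir7083, Mir3064, Mir1247 and Mir29b-2, its neighbours in rank, had between 14 and 21 counts in each pup.

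The wider group to which these miRNAs are often assigned starts with the bases AGCAGC at or near the 5′ end of the mature arm. The members carry it at base 1 of the 3p arm, and the relatives at base 2 of the 5p arm, so that their seeds are shifted by 1 base. Examples from RefSeq show the shift, with AGCAGC in capitals.
miR-15a-5p: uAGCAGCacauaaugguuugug
miR-16-5p: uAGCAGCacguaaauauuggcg
miR-195a-5p: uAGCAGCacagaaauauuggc
miR-322-5p: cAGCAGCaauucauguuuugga
miR-503-5p: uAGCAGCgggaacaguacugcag
These relatives are known as brakes on the cell cycle. Of the 8 listed, 7 were counted as genes and all 7 were detected. Of all 1973 counted miRNA genes 17.8% were detected, and 1293 had no own-strand count in either pup. AGCAGC at base 1 or 2 of a mature arm is not limited to this list: 15 genes of the RefSeq table carry it, the 3 members and 8 listed relatives among them. The other 4, Mir195b, Mir6342, Mir6353 and Mir6419, had 0 counts in both pups, which allows up to 0.933 CPM in pup 1 and 0.820 CPM in pup 2. Mir322 stood at 8465 CPM ± 1318 (SD, n = 2), 3.03-fold above Mir107, whereas Mir15a (2247 CPM ± 89.02) and Mir16-1 were the next below Mir107. Mir15b (723 CPM ± 66.3), Mir195a (595 CPM ± 1.39), Mir16-2 and Mir503 (148 CPM ± 31.9) followed, all above Mir103-2. Reads that fit several precursors, as those of the annotated miR-103-3p and miR-16-5p do, are outside these levels. The order is therefore one of reads placed at 1 gene and not of the mature miRNAs. The ranges over the pups of Mir107 and Mir15a lay apart, 2668 to 2926 CPM against 2184 to 2310 CPM.

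**Figure D5:**
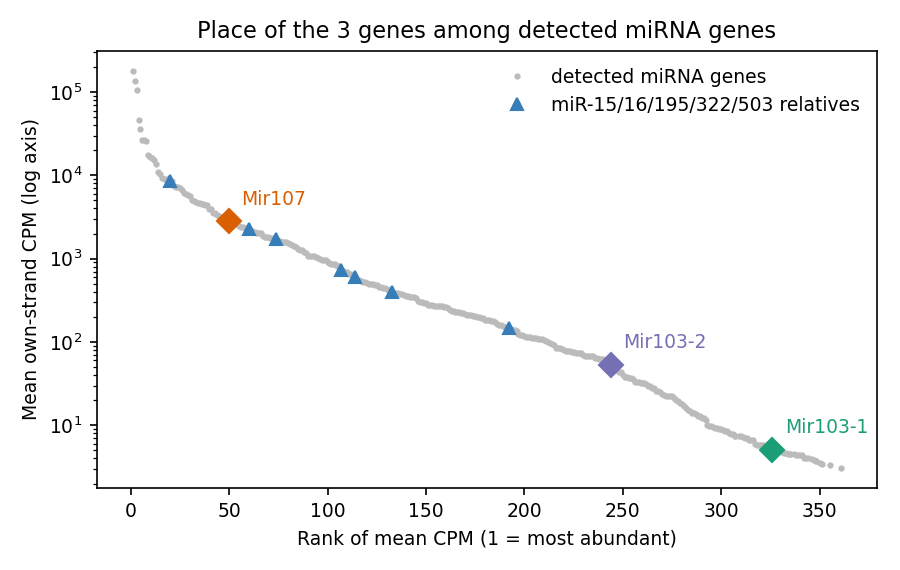
Mean own-strand CPM (log axis) against rank for the detected miRNA genes (grey), with the 3 members as diamonds and the 7 counted relatives as triangles. Mir107, at rank 50, lies between Mir322 (rank 20) and Mir15a (rank 60), and both Mir103 genes lie below every relative.

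Between the pups, 6 of the 7 relatives were called higher in pup 2 in the exact binomial test and none lower. Of all tested genes, 25.7% were called higher and 15.3% lower. These shares include genes with as few as 10 counts summed, and the test calls smaller ratios at higher counts. The relatives had from 403 and 624 counts (Mir503) to 24228 and 34400 (Mir322) in pups 1 and 2. Shares among genes of similar counts were not computed. Mir195a was not called (log2 ratio 0.00). The median log2 ratio of the relatives was 0.30, beside 0.04 over all tested genes and -0.13 for Mir107. Mir15a and Mir16-1, Mir15b and Mir16-2, and Mir322 and Mir503 are neighbours on 3 chromosomes, so these are not 7 separate observations. Marker genes also differed between the pups. Of 9 tested neural markers, 4 were called higher in pup 2 and none lower, with a median log2 ratio of 0.23. Of 5 tested markers of other tissues, 3 were called higher (Mir206, log2 ratio 0.55, Mir451a, 0.42, and Mir143, 0.04) and 2 lower (Mir126a, -0.10, and Mir122, -0.70). For both marker lists the shares over all tested genes are again 25.7% higher and 15.3% lower, with the same limit of depth. Mir143, called at 0.04, had 22111 counts in pup 1 and 25915 in pup 2. The summed level of the neural markers was 20332 CPM in pup 1 against 23322 CPM in pup 2, while the other markers summed to 34978 and 33376 CPM. Each sum was mostly 1 gene, Mir137 (15026.5 and 17125.2 CPM) in the first and Mir126a (27837.8 and 26007.4 CPM) in the second. The part of the markers in the ratios of the relatives and of Mir107 was not tested, nor was the contrast between Mir107 and its relatives.

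Of 7 further miRNA genes known from insulin and lipid metabolism, 6 were counted and 5 detected. Mir143 (6977 CPM ± 145, SD, n = 2) lay above Mir107. Mir34a (648 CPM ± 12.5), Mir375 (115 CPM ± 12.1), Mir122 and Mir33 (74.7 CPM ± 10.9), the miRNA of the cholesterol regulator gene Srebf2, lay between Mir107 and Mir103-2. Mir802 (1.89 CPM ± 0.033), with 6 and 7 counts, was not detected and lay below Mir103-1. In the exact binomial test 1 of these genes was called higher in pup 2 (Mir143, log2 ratio 0.04) and 1 lower (Mir122, -0.70), against 25.7% and 15.3% of all tested genes, so these counts are near the background. Their median log2 ratio was 0.03.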

How the data were processed

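The values are raw read counts that the authors deposited for every miRNA gene, in columns for either strand, its own strand and the opposite strand. Build mm10 and annotation GENCODE M4 are named in text the authors deposited beside them. Aligner and counter: not given in the sources used here. Own-strand counts were scaled to their total, leaving out the read classes that name no gene (49.4% of pup 1's reads and 49.2% of pup 2's).

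Symbols and positions came from GENCODE M21 by Ensembl identifier (1894 of 1973 matched), and sequences from RefSeq, where all 3 members matched. The members and lists were chosen with earlier results of these data known. Besides the members, the text names list genes, the 2 genes on either side of each member in rank, and the 3 most like it. The binomial test was tested on simulated data. Alternatives were TMM and DESeq2 scaling, either-strand counts, other totals, count minimums, pseudocounts, window lengths and leaving out each pup. Software was Python 3.11.15, scipy 1.17.1, R 4.3.3, edgeR 4.0.16 and DESeq2 1.42.0.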

Additional observations from a re-analysis of the deposited data

Results flagged for a closer look

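Of the listed genes, 4 had no row of their own, while a gene annotated on the other strand at the same place had opposite-strand counts above the limit that a count of 0 allows. Over both pups these were 3644 counts at Mir497b, where Mir497 lies, 14589 at Gm25301 (Mir378a), 2512 at Mir142b (Mir142) and 90 at Gm25641 (Mir9-1). They are not part of any level given above, and none of the miR-103 and miR-107 genes had such counts.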

How the results depend on the processing

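No log2 ratio of a member changed sign or crossed the threshold under another scaling, total, strand, pseudocount or count minimum; a minimum of 50 counts summed left Mir103-1 untested. The adjusted p of Mir107 ranged from 4.1e-16 to 1.5e-09 over these alternatives, and that of Mir103-1 from 0.065 to 0.107. Levels moved with the total by construction: without the most abundant gene Mir107 stood at 3416 CPM and Mir103-2 at 64.4 CPM, and per 1000000 of all reads at 1417 and 26.7. Leaving out a pup gave 2668 to 2926 CPM for Mir107, 50.4 to 55.2 for Mir103-2 and 3.11 to 7.10 for Mir103-1, which with 2 pups cannot exceed the SD. The fold of Mir107 over Mir103-1 was 941 without pup 2 and 376 without pup 1, and that of Mir103-2 over Mir103-1 16.2 and 7.77.

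Requiring 1.5-fold left 32 of 169 called genes (20 higher and 12 lower in pup 2), and Mir107 was not among them; 1 count in both pups gave 553 detected genes. Windows of 18 bases occurred in 1 precursor for 76.8% (Mir103-1), 68.1% (Mir103-2) and 81.4% (Mir107), and windows of 24 bases for 93.7% (Mir103-2) and 98.4% (Mir107), by construction of their length. No paired comparison of sample groups was possible because the 2 samples form 1 group, while folds between members were taken within each pup. The few counts of Mir103-1 limit its ratio.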
